A study of Mus musculus with 2 samples.

Results

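Among the enterochromaffin cells of the mouse small intestine, the cells described here were selected on their measured transcripts: they carried Tph1, the enzyme that commits tryptophan to serotonin synthesis, and little or no Tac1, the precursor of the tachykinin substance P. A barcode was a member when it had at least 500 genes, at least 1000 unique molecular identifiers (UMIs), at most 25% mitochondrial UMIs, fewer than 3 UMIs of Neurog3, under 1% of its UMIs from each of 7 hormone genes (Gip, Gcg, Pyy, Cck, Sst, Ghrl and Nts), at least 5 UMIs of Tph1, and Tac1 under 0.1% of its UMIs. These limits kept 222 cells of the 8761 that passed the first 3 limits and of the 12591 deposited barcodes. Of the 222 cells, 21 came from the WT library and 201 from the library labelled NFKO. The same rule with Tac1 at 0.1% or more gave 161 and 210 cells, which are called Tac1-high enterochromaffin cells.

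Single-cell RNA was read from epithelial cells sorted by flow cytometry for the red reporter tdTomato, with 1 library for each genotype. WT mice were Neurog3Cre; Rosa26tdtomato, in which a Cre under control of Neurog3 switches on the reporter in endocrine progenitors and keeps it on in their descendants. The NFKO mice were Neurog3Cre-FoxO1 f/f; Rosa26tdtomato, so that they shared the driver and the reporter and also carried floxed FoxO1. For each library, 4 to 5 mice, which were 4 to 6 weeks old, gave their entire small bowel to 1 pool after the pancreas was taken off, so that pools and genotypes cannot be told apart. With 1 library per genotype no test was possible, and the values below carry exact 95% intervals that cover counting error only.

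Enterochromaffin cells make most of the serotonin in the body. They sense nutrients, irritants and stretch at the gut surface and signal to nerves and to neighbouring cells. Tac1 is typical of enterochromaffin cells of the crypt, and cells that migrate onto the villus, where BMP signals are strong, are known to lose Tac1 and to gain secretin (Sct).

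The label given to these cells rested on Tph1, Reg4, Afp, Cartpt and Trpm2, and it held in part. Tph1 is above its limit by the rule and Tac1 below, so neither is a finding. Tac1 was low but not absent. Only 5 of 21 WT cells and 36 of 201 NFKO cells had 0 Tac1 UMIs. After each cell was thinned to 2000 UMIs, a Tac1 UMI was left in 38.1% of WT and 40.5% of NFKO cells, against 8.32% and 8.26% of goblet-type cells, which should lack Tac1 and give the level of free RNA. The cells are therefore called Tac1-low. The highest Tac1 share inside the limit was 0.0997% in WT and 0.0990% in NFKO, and the lowest outside was 0.106% in WT. Between 0.08% and 0.1% lay 4 WT and 18 NFKO cells, and between 0.1% and 0.12% lay 2 and 6. At the Tph1 limit, 2 WT and 3 NFKO cells had just 5 UMIs, and 2 and 5 cells with 4 UMIs fell outside. No barcode of a member occurred in both libraries.

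The WT members were of 2 kinds. In 13 of 21 WT cells and 187 of 201 NFKO cells, Tph1 made up at least 0.1% of the UMIs, and these are called Tph1-rich. The other 8 WT cells reached 5 Tph1 UMIs through depth, with a median of 47597.5 UMIs against 8396 in the Tph1-rich cells. They held 78.1% of the summed UMIs of the WT members, while the 14 such cells of NFKO held 25.2%. Mki67 or Top2a, genes of dividing cells, was found in 7 of these 8 WT cells and in 6 of the 14 NFKO cells, and the stem cell gene Olfm4 reached 1613 counts per 1000000 UMIs (CPM) in the WT cells against 8.56 CPM in the Tph1-rich WT cells. Reg4 was seen in 1 of the 8. Of these 8 cells, 4 had doublet scores high enough to be removed in an alternative setting, against 0 of the 13 Tph1-rich cells. In NFKO it was 5 of the 14 and 9 of the 187. A summed WT profile is thus mostly that of these 8 cells, and each comparison below is given for all members and for the Tph1-rich cells, a division that was made after their values were seen.

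Median depth was 11543 UMIs in WT members and 10011 in NFKO members, from libraries of 90002878 and 124300388 UMIs in all. Markers of other cell types were present. The summed goblet list reached 1% of a cell's UMIs in 4 of 21 WT cells and 47 of 201 NFKO cells, with ranges of 0.0196% to 20.1% and 0.0988% to 36.0%. The Paneth list reached 1% in 1 and 20 cells, the enterocyte list in 1 and 1, and the stem, cycling, tuft, immune and acinar pancreas lists in 0 and 0. Among goblet genes, Zg16, a lectin of mucus granules, had a UMI in all 187 Tph1-rich NFKO cells but in 8 of 13 WT cells, where its median per cell was 146 CPM against 1146 CPM. Their part in the results below was not tested, and the shares were also taken without the cells rich in goblet or Paneth UMIs. The libraries also differed in sex: 19 WT cells were typed male and 0 female, while 19 NFKO cells were typed male and 167 female.

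Tac1-low cells were a small part of the WT enterochromaffin cells and about as many as the Tac1-high cells in NFKO. They were 21 of 182 enterochromaffin cells in WT, or 11.5% (Clopper-Pearson 95% interval 7.29 to 17.1), and 201 of 411 in NFKO, or 48.9% (44.0 to 53.9). The ratio of these shares was 4.24 (2.70 to 7). Over all cells that passed the quality limits the shares were 0.671% (0.416 to 1.02) and 3.57% (3.10 to 4.09), a ratio of 5.32 (3.39 to 8.78), whereas Tac1-high cells were 5.15% and 3.73%, a ratio of 0.725 (0.587 to 0.895). More of the NFKO cells with at least 5 Tph1 UMIs were set aside by the rule: 121 of 604 for Neurog3 and 73 for a hormone, against 37 and 5 of 223 in WT.

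The direction of the share was the same without the doubtful cells. Among Tph1-rich cells it was 13 of 142, or 9.15% (4.97 to 15.1), in WT and 187 of 372, or 50.3% (45.1 to 55.5), in NFKO, a ratio of 5.49 (3.13 to 10.5). Among cells typed male it was 12.7% of 150 WT cells and 59.4% of 32 NFKO cells. Without cells rich in goblet or Paneth UMIs, Tph1-rich cells gave 9.49% and 47.3%. Since sorting, dissociation and pooling were done once per genotype, this difference is between 2 libraries.

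**Figure D1:**
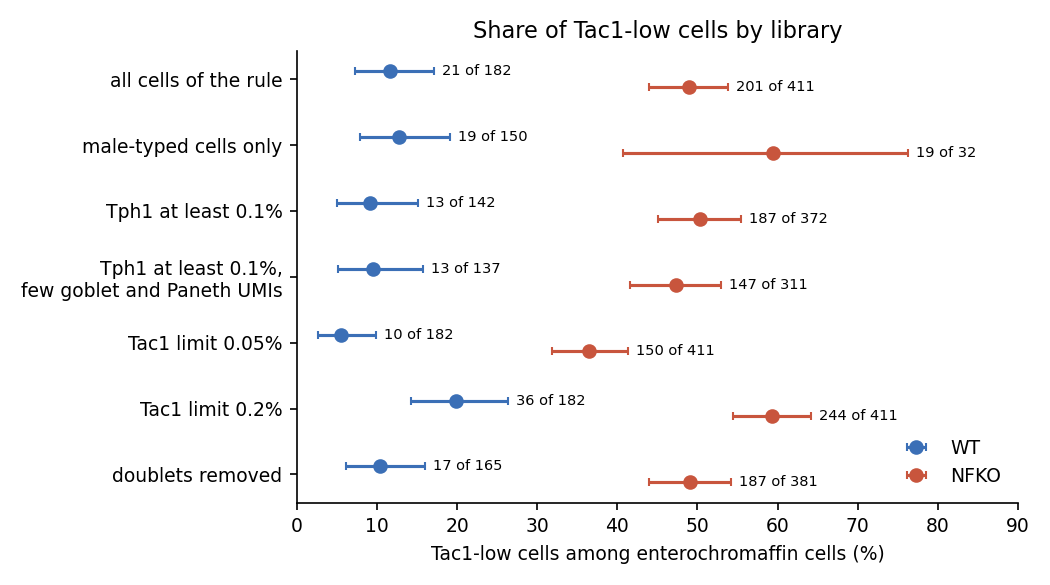
The percentage of enterochromaffin cells that were Tac1-low (x axis) under each setting (rows), in WT and NFKO; points are shares and bars exact 95% intervals for counting error. Under the reported limits the shares were 11.5% and 48.9%, and the NFKO point lies to the right of the WT point in every row.

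Among the markers, Trpm2, a cation channel opened by oxidative stress, was higher in the Tac1-low cells of both libraries. It had a UMI in 13 of 21 WT cells and 185 of 201 NFKO cells, against 53 of 161 and 88 of 210 Tac1-high cells. Per cell it ran from 0 over a median of 160 to 1225 CPM in WT and from 0 over 365 to 1902 CPM in NFKO, where the median Tac1-high cell had 0. The summed level was 126 CPM in WT and 291 CPM in NFKO, 2.70 and 3.61 times that of Tac1-high cells, and 6.54 and 3.42 times among Tph1-rich cells. In thinned cells it was found in 33.3% and 56.5%, against 0 of 1238 and 0.508% of 2360 goblet-type cells, whose median depths before thinning were 25362 and 23193.5 UMIs. The channel's transcript was therefore above the level of free RNA in both libraries.

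Cartpt, which encodes the CART neuropeptide, was the other marker that was higher in both libraries. Its UMIs were found in 9 of 21 WT and 94 of 201 NFKO cells, with single cells from 0 to 3125 CPM and from 0 to 7745 CPM. Summed, it stood at 180 and 417 CPM, against 38.0 and 35.8 CPM in Tac1-high cells. Among Tph1-rich cells the ratios were 12.5 and 11.2. Over all members, 3 cells held 74.0% of the Cartpt UMIs in WT and 20.9% in NFKO, so the WT level rested on few cells. Most cells with Cartpt had little of it, since it passed 0.1% of UMIs in 3 WT and 34 NFKO cells.

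Reg4, a secreted C-type lectin, and Afp, the fetal liver protein alpha-fetoprotein, were not higher than in Tac1-high cells of both libraries when all members were summed. Reg4 was found in 12 of 21 WT and 142 of 201 NFKO members, and per cell it ran from 0 over 260 to 55571 CPM and from 0 over 776 to 88195 CPM. Its sum was 2633 CPM against 3838 CPM in Tac1-high cells of WT and 7861 against 6252 CPM in NFKO. In Tph1-rich cells it was 2.28 (2.15 to 2.41) times the Tac1-high level in WT and 1.27 (1.25 to 1.30) times in NFKO, so the WT direction turned between all cells and the Tph1-rich cells, which keep 13 of the 21 members and 129 of the 161 Tac1-high cells of WT. Goblet-type cells also carried Reg4, in 9.69% and 12.3% of thinned cells against 47.6% and 62.5% of members. Afp had UMIs in 2 WT and 41 NFKO members, and its 75.1 and 1057 CPM were lower than the 293 and 1414 CPM of Tac1-high cells. In NFKO, 3 cells held 60.7% of the Afp UMIs. The WT direction turned to 1.84 times with a Tac1 limit of 0.2%, and to 3.97 times in Tph1-rich cells with few goblet or Paneth UMIs. Cartpt and Trpm2 were thus the markers that were higher in Tac1-low cells of both libraries, and among Tph1-rich cells Reg4 joined them, with Tph1 left out of the count because the rule and the Tph1-rich limit set its level.

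**Figure D2:**
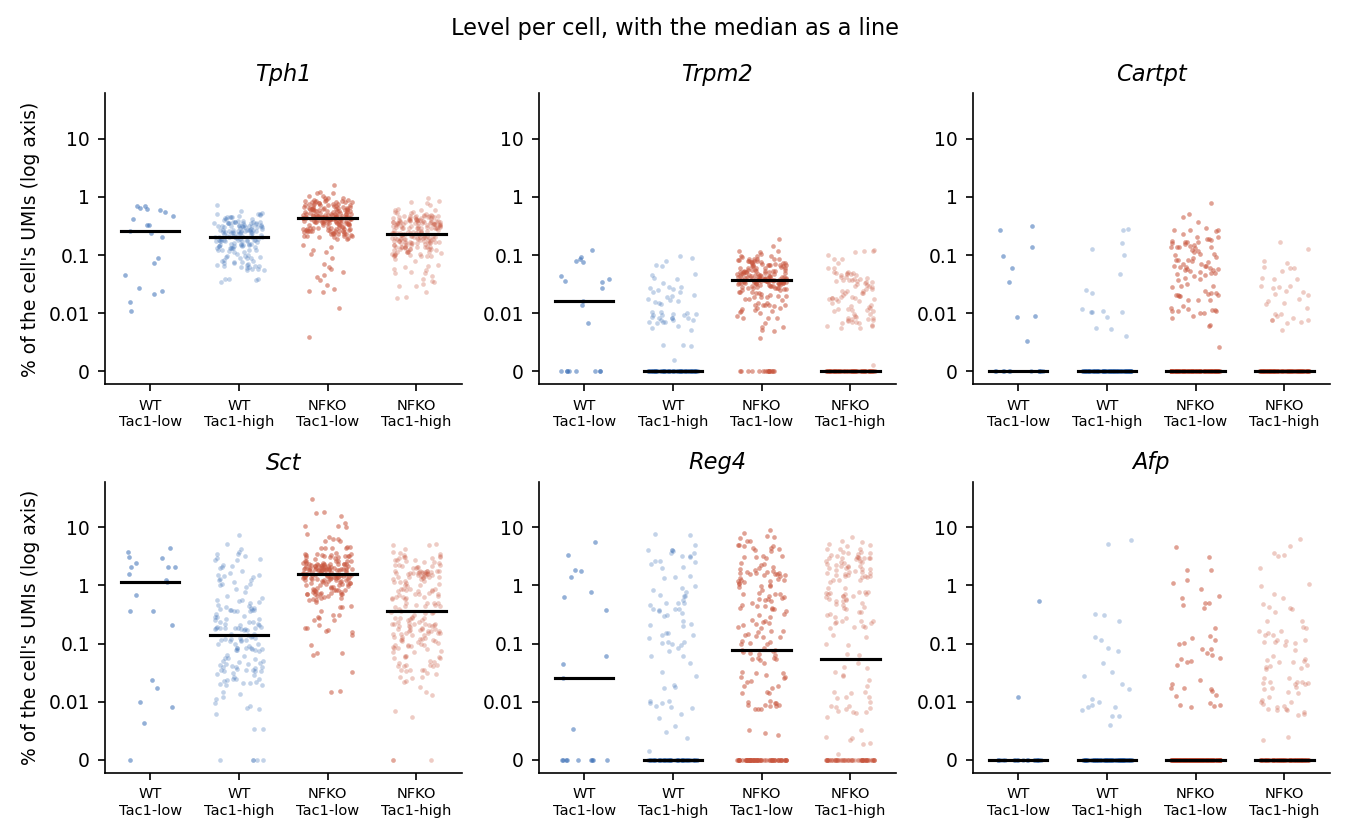
Each point is 1 cell, with the gene's share of the cell's UMIs in percent on a log axis (0 drawn at the bottom), for Tac1-low and Tac1-high enterochromaffin cells of WT and NFKO; the line is the median. Trpm2 has a median of 0 in both Tac1-high groups and above 0 in both Tac1-low groups, while the points for Reg4 overlap in all 4 groups.

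Secretin, the peptide hormone that calls for bicarbonate from the pancreas, was abundant in the Tac1-low cells. It was found in 20 of 21 WT and in 201 of 201 NFKO members, with medians of 11321 and 15682 CPM per cell, against 1396 and 3588 CPM in Tac1-high cells. The highest NFKO cell reached 311144 CPM. In Tph1-rich cells its sum was 22712 against 5719 CPM in WT, 3.97 times, and 25054 against 9500 CPM in NFKO, 2.64 times. Of the other peptides, Adm, the vasodilator adrenomedullin, was 68.5 against 0.631 CPM in Tph1-rich WT cells and 29.4 against 1.94 CPM in NFKO, on 8 UMIs in 2 cells and 57 UMIs in 24 cells. Ucn3, of the corticotropin-releasing family, was lower, at 17.1 against 57.5 CPM and 17.0 against 73.6 CPM, and passed 0.1% of UMIs in 0 members of either library.

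In NFKO the levels changed across bins of Tac1 rather than at its limit alone, while in WT only Trpm2 of the 4 genes below kept 1 order. In NFKO, Trpm2 stood at 294 CPM in the 36 members with 0 Tac1 UMIs, 291 in the 165 other members, 118 in the 94 cells with Tac1 of 0.1% to 0.5%, 43.6 in the 59 cells up to 1% and 40.7 in the 57 cells above. Cartpt passed from 881 over 337, 56.2 and 11.6 to 17.7 CPM along the same bins, and Sct from 27790 over 17636, 7444 and 6503 to 7185 CPM. Chgb, the granule protein chromogranin B, went the other way, from 27147 to 52835 CPM. In WT, Trpm2 was 619, 83.5, 54.8, 44.9 and 35.0 CPM in bins of 5, 16, 51, 41 and 69 cells, of which the second holds the 8 deep cells. Along these WT bins Cartpt was 1475, 69.3, 47.0, 6.90 and 45.9 CPM and Sct 27318, 3620, 4346, 2466 and 4107 CPM. Chgb was 43523, 13424, 24093, 47189 and 67562 CPM there. These bins share their library and were cut by Tac1, so the order is a description.

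The promoters of the secreted markers Reg4, Afp and Cartpt, of Sct and of Tac1 are shown because the levels of these genes are described here. Of these genes only Tac1 was part of the rule that chose the members. FoxO1 and HNF1, a factor of liver and gut, bind known motifs. Each is the 250 bases before the RefSeq start on GRCm38.p6, 5′ to 3′ on the gene's strand, with capitals for motif matches. Motifs were chosen after the data were seen, and both strands were searched for the E-box CAGNTG of Neurog3-type factors, the FoxO motif GTAAACA, the HNF1 motif (GTTAAT and ATT with any 1 base between them) and the HNF4 motif CAAAGTCCA.
Reg4: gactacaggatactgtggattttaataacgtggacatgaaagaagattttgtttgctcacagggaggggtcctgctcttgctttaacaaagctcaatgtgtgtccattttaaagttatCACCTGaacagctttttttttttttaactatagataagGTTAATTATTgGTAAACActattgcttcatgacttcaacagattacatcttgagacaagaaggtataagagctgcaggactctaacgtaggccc
Afp: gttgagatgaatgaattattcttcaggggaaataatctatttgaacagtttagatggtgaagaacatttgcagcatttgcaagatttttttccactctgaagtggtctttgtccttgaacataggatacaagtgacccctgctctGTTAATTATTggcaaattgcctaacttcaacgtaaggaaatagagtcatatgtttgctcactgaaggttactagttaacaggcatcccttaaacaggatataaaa
Cartpt: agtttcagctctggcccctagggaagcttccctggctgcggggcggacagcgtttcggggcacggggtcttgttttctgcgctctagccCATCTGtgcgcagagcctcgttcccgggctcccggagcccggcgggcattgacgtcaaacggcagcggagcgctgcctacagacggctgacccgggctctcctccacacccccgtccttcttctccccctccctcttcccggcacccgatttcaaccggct
Sct: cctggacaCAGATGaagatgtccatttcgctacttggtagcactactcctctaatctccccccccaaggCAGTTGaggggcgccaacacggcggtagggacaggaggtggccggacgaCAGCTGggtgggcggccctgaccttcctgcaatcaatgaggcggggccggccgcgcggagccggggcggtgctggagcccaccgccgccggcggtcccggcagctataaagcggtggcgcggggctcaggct
Tac1: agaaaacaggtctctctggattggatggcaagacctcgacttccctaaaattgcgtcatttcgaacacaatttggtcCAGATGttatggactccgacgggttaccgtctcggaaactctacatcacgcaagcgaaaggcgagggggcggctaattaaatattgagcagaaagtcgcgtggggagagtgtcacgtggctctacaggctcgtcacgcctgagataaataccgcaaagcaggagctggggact

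Of 14 genes looked up, 11 had a promoter in the table. The Reg4 window is chr3:98221906-98222155 on the plus strand, and it held an E-box at -132, the HNF1 motif at -94 and, separated from it by a single base, the FoxO motif at -83, counted from the start site. The Afp window, chr5:90490464-90490713 on the plus strand, held the same HNF1 motif at -105. In Cartpt, chr13:99900684-99900933 on the minus strand, an E-box lay at -161. Sct, chr7:141279134-141279383 on the minus strand, held E-boxes at -242, -181 and -132. Tac1, chr6:7554811-7555060 on the plus strand, held an E-box at -173. Of all 32851 promoters in the table, 44.8% held the E-box, 3.17% the FoxO motif, 0.371% the HNF1 motif and 0.384% the HNF4 motif, so the E-box is common and the HNF1 motif rare. The markers Tph1, at each of its 2 start sites, and Trpm2 held no match, nor did Smad6. Serpina1c, Apoa1 and Glp1r held E-boxes only. Whether these genes hold a motif more often than all promoters do was not tested. A match is a string of letters and not a site.

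Reg4 and Afp divided the members among themselves. Reg4 passed 0.1% of a cell's UMIs in 8 of 21 WT and 96 of 201 NFKO members. Afp passed it in 1 and 18 members, and all of these were among the Reg4 cells. Cartpt passed it in 3 and 34, of which 2 and 25 were Reg4 cells. Of the 18 NFKO cells with Afp, 7 also had Cartpt at 0.1%, and 18 of 18 had Trpm2 at 0.01% of UMIs or more.

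The Tph1-rich NFKO members were split at 0.1% Reg4, after their values were seen, into 94 Reg4-rich and 93 Reg4-poor cells of like depth, with medians of 9798.5 and 9739 UMIs. Their median Tac1 shares were also close, at 0.0216% and 0.0242%. Of 3395 genes, 25 were over 2-fold higher (0.736%) and 17 over 2-fold lower (0.501%) in the Reg4-rich cells. Afp differed most, with 2687 against 9.73 CPM. In Tac1-high cells divided the same way Afp was 3572 against 37.2 CPM in NFKO. In those of WT it was 1335 against 1.995 CPM, a ratio of 669 (185 to 5534). This WT ratio rested on few cells, since Afp passed 0.1% of UMIs in 7 of all 161 WT Tac1-high cells. Trpa1, the irritant receptor of enterochromaffin cells, was 246 against 44.3 CPM, a ratio of 5.56 (3.99 to 7.94), and 3.02 and 2.04 in the Tac1-high cells of NFKO and WT. Apoc3, an apolipoprotein of lipid particles, had ratios of 5.36, 10.5 and 18.1, and Rbp2, a retinol carrier of the gut, 3.96, 5.32 and 2.37. Cyp4v3, Fmo2 and Igfbp4 were also at least 2-fold higher in all 3 pairs.

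Other genes had different ratios in the Tac1-low and the Tac1-high cells. Agr2, a disulfide isomerase of mucus-making cells, was 760 against 2012 CPM in Tac1-low cells, a ratio of 0.378, against 2.12 (1.88 to 2.39) in Tac1-high cells of NFKO and 0.693 (0.604 to 0.793) in those of WT. Sct was 16110 against 34860 CPM, a ratio of 0.462, against 1.5 and 1.28 in Tac1-high cells. Cartpt differed by 1.97 times in Tac1-low cells and by 39.9 and 33.5 times in Tac1-high cells, where it was rare. Trpm2 was 0.912 (0.787 to 1.06) times, an interval that includes 1, against 3.37 and 2.85 in Tac1-high cells. The Reg4-rich and Reg4-poor Tac1-high cells of NFKO were not alike in Tac1 or depth. Their median Tac1 shares were 0.397% and 0.919%, and their median depths 9452 and 13179.5 UMIs. In WT the Tac1 shares were 0.923% and 1.06%, and the depths 11046 and 11712 UMIs. The part of Tac1 and depth in the Tac1-high ratios was not tested. WT had 8 Reg4-rich and 5 Reg4-poor Tph1-rich members, in which Afp was 562 CPM against 0 UMIs and Sct 0.764 times. How these ratios differ between the kinds of cell was not tested.

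**Figure D3:**
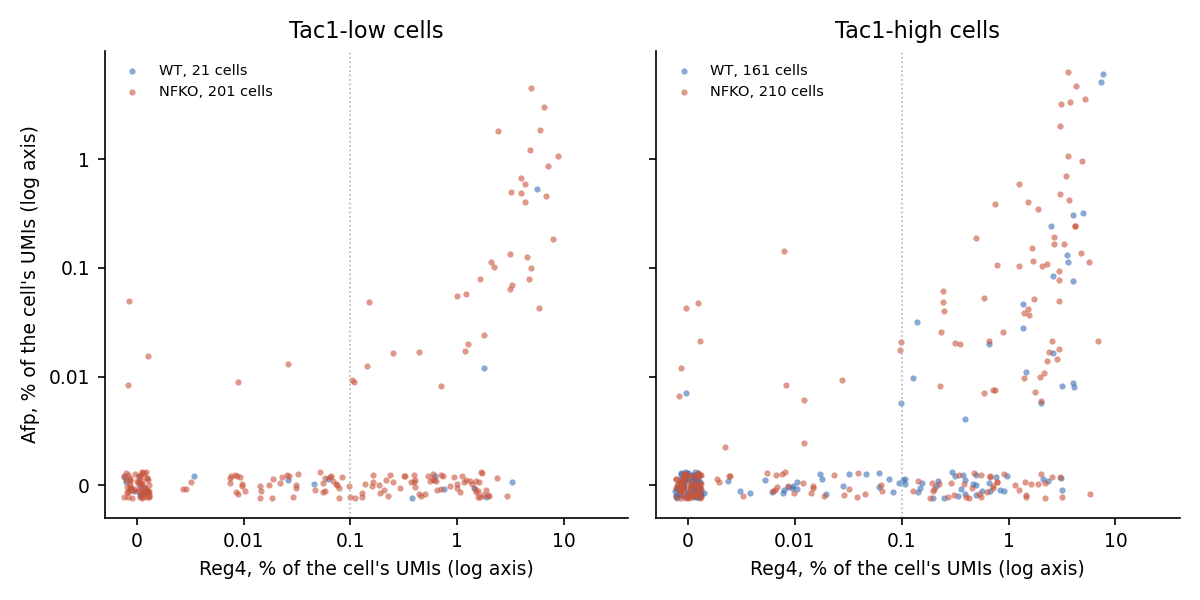
Each point is 1 cell, with Reg4 (x axis) and Afp (y axis) as percent of its UMIs on log axes (0 drawn at the edge), in Tac1-low (left) and Tac1-high (right) enterochromaffin cells of WT and NFKO; the dotted line marks 0.1% Reg4. In Tac1-low cells, all 1 WT and 18 NFKO cells with Afp at 0.1% or more lie to the right of the line.

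Compared with Tac1-high cells, the Tac1-low cells had more of the genes that answer to BMP, more serum-type genes, and less of several endocrine transcription factors. Since Tac1 chose the cells, these differences are descriptions. A gene was counted where its ratio passed 2-fold the same way in both libraries, and of 3314 genes 66 (1.99%) were higher and 93 (2.81%) lower. Among Tph1-rich cells it was 171 (4.59%) higher and 143 (3.84%) lower of 3727, where the median log2 ratio of all genes was -0.07 in WT and -0.09 in NFKO. Panel genes were counted past 1.5-fold in both libraries, which 10.1% of all genes passed upward and 9.95% downward in Tph1-rich cells, and 4.47% and 6.37% over all members.

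Of the 5 BMP target genes measured in Tph1-rich cells, 4 were higher in both libraries, with list medians of 1.58 and 1.02 on the log2 scale. Id1, an inhibitor of differentiation factors, was 788 against 263 CPM in WT and 1129 against 558 CPM in NFKO, and Id3 was 2.70 and 1.51 times. Id1 had UMIs in 13 of 13 and 182 of 187 Tac1-low cells, but in 63 of 129 and 123 of 185 Tac1-high cells. The feedback inhibitors Smad6 and Smad7 were 19.4 and 5.56 times in WT and 3.07 and 3.19 times in NFKO, on 10 and 16 WT UMIs. Id2 was 2.36 times in WT and 1.33 times in NFKO and was not counted. Over all members, 3 of 4 measured were higher. Tgfb1, a ligand of the related TGF-beta pathway, was 13.6 and 4.89 times.

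Serotonin genes other than Tph1, whose level the rule set, were lower or not past the limit. Ddc, which makes serotonin from 5-hydroxytryptophan, was 488 against 954 CPM in WT and 407 against 1287 CPM in NFKO, ratios of 0.511 and 0.316. Gch1, which starts the synthesis of the Tph1 cofactor, was 0.369 and 0.305 times. Slc18a2, a vesicular monoamine transporter, had 1 and 28 UMIs, 0.0929 and 0.108 times the Tac1-high level, while the other transporter, Slc18a1, was 1.18 and 1.28 times. Of the 9 genes of the list measured, Tph1 included, 3 were lower, and none other than Tph1 was higher. These 3 were also the ones that were lower over all members, of 10 measured.

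Transcription factors were lower more often than higher, at 9 and 3 of 19 in Tph1-rich cells and at 9 and 0 of 18 over all members. Fev, the serotonergic factor, was 0.229 and 0.297 times, Nkx2-2 0.172 and 0.307, Hmgn3 0.276 and 0.189 and Rfx6 0.393 and 0.214 times. Mnx1, a factor of motor neurons and beta cells, was 17.1 against 153 CPM and 3.09 against 139 CPM. Sox4 was higher at 1.97 and 1.96 times, Foxa1 at 2.10 and 1.72 and Prox1 at 3.87 and 1.62 times. Lmx1a, which acts upstream of Tph1, was 1.14 and 0.957 times, and Neurod1 was 1.36 and 1.24 times.

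Granule and release genes were mixed. In Tph1-rich cells 6 of 13 granins and processing genes were higher and 1 lower. They included Scg3 at 3.93 and 1.94 times, Scg5 at 3.01 and 1.65 and Pcsk1n at 4.02 and 1.93 times, while Chgb was 0.773 and 0.698 times and Ptprn2 0.491 and 0.259 times. Over all members only 2 of 12 were higher, with a WT median of -0.61. Syt7, a calcium sensor of granule release, was 1250 against 123 CPM in WT and 1138 against 334 CPM in NFKO, and the fusion protein Snap25 was 3.21 and 1.95 times. Rab3c, a small GTPase of granules, was 0.253 and 0.233 times and Rph3al 0.589 and 0.330 times, and 7 of the 11 release genes measured were counted in neither direction.

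Serum-type genes were higher in 4 of 6, namely Ambp, Apoa1, Apoc3 and Serpina1c. In WT, 3 of the 13 cells held 88.0% of the Apoa1 UMIs, 88.9% of Apoc3, 63.1% of Ambp and 54.5% of Serpina1c, while in NFKO 3 cells held 8.65% to 29.7% of each. Serpina1c, an antitrypsin, had UMIs in 12 of 13 and 176 of 187 Tph1-rich Tac1-low cells against 11 of 129 and 64 of 185 Tac1-high cells, and was 29.2 and 4.81 times. Ambp, the alpha-1-microglobulin precursor, was 10.6 and 4.21 times. The remaining 2, Afp and Ttr, were 0.697 and 0.861 times and 0.297 and 1.10 times. Of the enterocyte list, 3 of 4 genes measured were higher and 0 lower, and over all members 4 of 5 and 0, beside 10.1% and 4.47% of all genes upward. Its member Sis, sucrase-isomaltase, was 4.40 and 3.51 times with medians of 1128 and 1501 CPM per cell, and Slc15a1, the peptide transporter and no member of that list, was 29.1 and 3.91 times. Fabp1, Fabp2, Apoa4, Apoa1 and Reg1 were among the highest ratios over all members, but 3 cells held over 50% of their UMIs in each library, and Reg1 had 0 UMIs in Tph1-rich WT cells.

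Of 9 channels and sensors measured in Tph1-rich cells, 2 were higher (Trpm2 and Cacna2d1) and 2 lower (Cacna1d and Cacna1h). Glp1r, the receptor of the incretin GLP-1 and no member of that list, was found in 11 of 13 and 113 of 187 Tac1-low cells against 7 of 129 and 32 of 185 Tac1-high cells, with ratios of 23.2 and 5.33. Cacna2d1, a calcium channel subunit, was 2.60 and 1.81 times, and the pore subunits Cacna1h and Cacna1d were 0.424 and 0.526 times and 0.571 and 0.333 times. Trpa1 was 0.769 and 0.385 times and the sodium channel Scn3a 0.688 and 0.521 times. The calcium-binding S100a6 was 8.79 and 3.49 times, and Cd24a was 1978 against 525 CPM and 2261 against 838 CPM.

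The cytoskeletal gene Vim, at 0.0363 and 0.0293 times, had UMIs in 5 of 13 and 42 of 187 Tac1-low cells against 121 of 129 and 152 of 185 Tac1-high cells. Atf6, a sensor of protein folding stress, was 0.101 and 0.0992 times, and catalase (Cat) 0.0570 and 0.110 times. Over all members, Gstt1, a glutathione transferase, was 0.132 and 0.0937 times, and Igfbp3 0.0349 and 0.171 times. Il17re, Vcan, Baiap3, Krt87, Pnmal1 and 1110032F04Rik completed the lowest genes of the Tph1-rich cells with Slc18a2, and the highest also held Nedd9, Adcy2, Phgr1, Ccdc3 and Auts2.

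**Figure D4:**
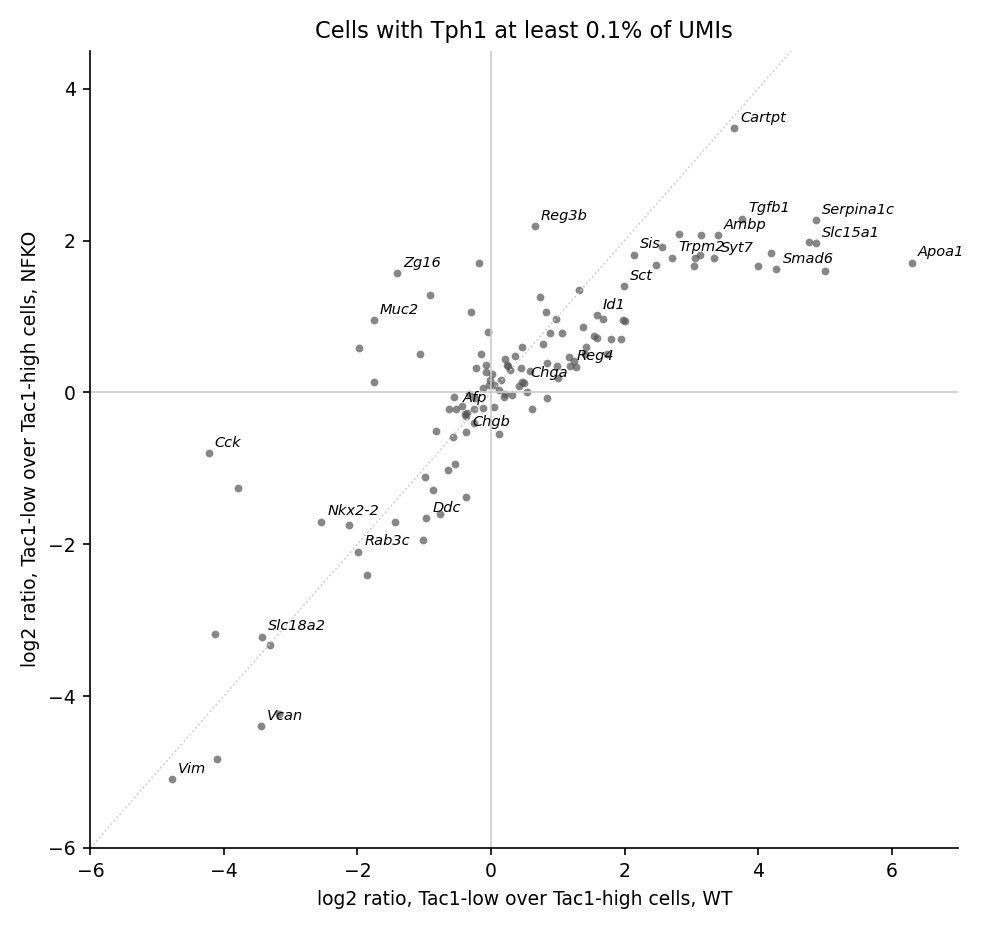
Each point is 1 of 125 genes in Tph1-rich cells, namely measured panel genes and the named highest and lowest genes of this comparison. The axes give the log2 ratio of Tac1-low over Tac1-high cells in WT (x axis) and NFKO (y axis). Both axes are above 0 for 65 genes and below 0 for 37. The named genes were ranked on going the same way in both libraries, so these counts do not measure how far the libraries match.

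Hormone-dominant endocrine cells, in which 1 of the 7 hormones made up at least 1% of UMIs, were 633 in WT and 1242 in NFKO. They were also limited to under 5 UMIs of Tph1 and fewer than 3 UMIs of Neurog3. The rule kept those hormones low in the members, so the hormones themselves are not compared. Hormone cells with more Tph1 were left out, so the ratios of genes found together with Tph1 depend on that limit. Against them 133 of 3317 genes (4.01%) were higher in Tac1-low cells and 151 (4.55%) lower, and among Tph1-rich cells 465 (12.8%) and 170 (4.68%) of 3629. Cartpt had 0 UMIs in the WT hormone cells and 0.674 CPM in NFKO, against 417 CPM in the NFKO members. Lmx1a was 166 and 216 times, Tpbg 232 and 221 times, Slc38a11 205 and 365 times, and Cwh43 73.2 CPM against 0 UMIs in WT and 374 times in NFKO. Reg4 was 128 and 119 times and Trpm2 23.6 and 35.8 times, so that Reg4 was higher than in these hormone-dominant cells of both libraries. Afp was 198 and 578 times, but its WT ratio rested on 40 UMIs in 2 cells. In NFKO, 3 cells held 60.7% of the Afp UMIs of the members. Chga, chromogranin A, was 32.6 and 22.7 times in the Tph1-rich cells. Past 1.5-fold in both libraries, 8.14% of all genes were higher and 8.14% lower over all members, and 21.3% and 10.4% in Tph1-rich cells, where 5 of 6 BMP targets, 8 of 14 granins and 6 of 21 transcription factors were higher and 1, 4 and 9 lower.

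Lower in Tac1-low cells were Isl1, a factor of hormone cells, with 0 UMIs in WT against 737 CPM and 20.4 against 680 CPM in NFKO, and Rbp4, the retinol carrier, with 1.88 against 735 and 11.2 against 1268 CPM. Fabp5 was 0.0193 and 0.0181 times, and the fatty acid receptor Ffar1 had 0 UMIs in WT and was 0.0220 times in NFKO. Scgn, a calcium sensor, was 0.0105 and 0.0336 times, and Nnat, Map2, Cnr1, Plcxd3 and Gm11992 had 0 UMIs in the WT members. Sct differed less, at 1.30 and 0.706 times in the Tph1-rich cells.

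NFKO beside WT, over all members, differed in 421 of 3693 genes upward (11.4%) and 254 downward (6.88%), against a median log2 ratio of 0.11. Among Tph1-rich cells it was 324 of 3615 upward (8.96%) and 79 downward (2.19%), with a median of 0.16. The 13 Tph1-rich WT cells held 116809 UMIs and the 187 NFKO cells 1939687, so that a WT gene at 3 UMIs stood at 25.7 CPM there and at 5.63 CPM over all WT members.

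Aim2, a sensor of cytosolic DNA, had 0 UMIs in WT members and 152 in NFKO members (58.6 CPM), and 2.23 against 35.5 CPM in Tac1-high cells. Wdfy1, an endosomal adaptor, had 3 and 144 UMIs, a ratio of 9.86 (3.31 to 48.4), and 0 and 120 UMIs in the Tph1-rich cells, with 17.7 against 53.8 CPM in Tph1-rich Tac1-high cells. Bcam, a laminin receptor, was found on 16 and 484 UMIs, a ratio of 6.22 (3.79 to 11), which was 2.21 (1.28 to 4.17) among Tph1-rich cells. C230038L03Rik, Chst1, Frmd3, Gdpd5, Lrrn1, Clic5 and Cfap410 had ratios of 5.63 to 8.22 over all members and of 1.68 to 2.29 in Tph1-rich cells, which leave out 8 WT and 14 NFKO members. In the Tph1-rich cells the highest were Sos2, Lasp1, Homer2, Snx10 and N4bp2l1 with 0 UMIs in WT and 105 to 166 in NFKO, followed by Muc2, the mucin of goblet cells, at 17.9 (9.09 to 41.6), Nmt1 and Marc2. The Muc2 ratio rested on 8 WT UMIs, and 3 cells held 43.3% of its NFKO UMIs. In Tph1-rich Tac1-high cells Muc2 was 232 CPM in WT and 636 CPM in NFKO.

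Hspa1b, a heat shock protein, was 218 against 32.8 CPM over all members, a ratio of 0.151 (0.112 to 0.201), and 574 against 43.3 CPM in Tph1-rich cells, and in Tac1-high cells it was 321 CPM against 29.98 CPM. Hspa1a was 0.177 and 0.118 times in the 2 sets, and Hsp90aa1 0.485 and 0.385 times. The stress list had 5 of 12 genes past 1.5-fold higher and 5 lower over all members, where 25% and 16.2% of all genes were, with a median log2 ratio of 0.25 beside 0.11 for all genes. In Tph1-rich cells 0 were higher and 5 lower, where 21.8% and 9.05% of all genes were, with a median of -0.42 beside 0.16. The 5 lower genes were Hspa1a, Hspa1b, Hsph1, Dnajb1 and Hsp90aa1 in both sets. Cebpb, a factor of acute responses, was 0.396 and 0.349 times, and Sfn, a 14-3-3 protein of epithelia, 0.411 and 0.250 times. Zfp704, Slirp, Mtln, Elf3 and Cdc25a had ratios of 0.441 to 0.548. Gm42418, which overlaps ribosomal RNA, was 65021 against 18669 CPM in Tph1-rich cells and Lars2 2089 against 637 CPM, and Spag9, Adcy2, Fam43a, Optn, Ap1g1, Megf9 and Ccnt1 were 0.266 to 0.462 times. Each library was prepared once, so preparation and genotype cannot be told apart.

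Values of gene lists differed between all members and the Tph1-rich cells. Over all members 80 panel genes were past 1.5-fold higher and 16 lower, where 25% and 16.2% of all genes were. In Tph1-rich cells it was 36 and 18, against 21.8% and 9.05%. These totals are given without the number of panel genes compared, so they are not shares. By list, transcription factors passed from 12 higher and 0 lower of 14 to 4 and 1 of 15, and granins from 12 and 0 to 1 and 3 of 13. Release genes passed from 9 and 0 of 11 to 3 and 1 of 12, and BMP targets from 5 and 0 to 0 and 0 of 5. The median log2 ratio of the transcription factors passed from 0.99 to -0.06, of granins from 1.15 to -0.25, of release genes from 1.13 to -0.03 and of BMP targets from 1.23 to 0.07, beside medians of 0.11 and 0.16 for all genes. Paneth genes passed from 4.91 to 0.96, with 0.148% and 0.171% of WT UMIs and 3.80% and 0.307% of NFKO UMIs, and goblet genes from -0.18 to 2.59, with 6 of 7 higher. Serotonin genes stayed at 0.30 and 0.25. Tph1 itself was 4760 and 4869 CPM and Lmx1a 377 and 362 CPM in the Tph1-rich cells of WT and NFKO.

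**Figure D5:**
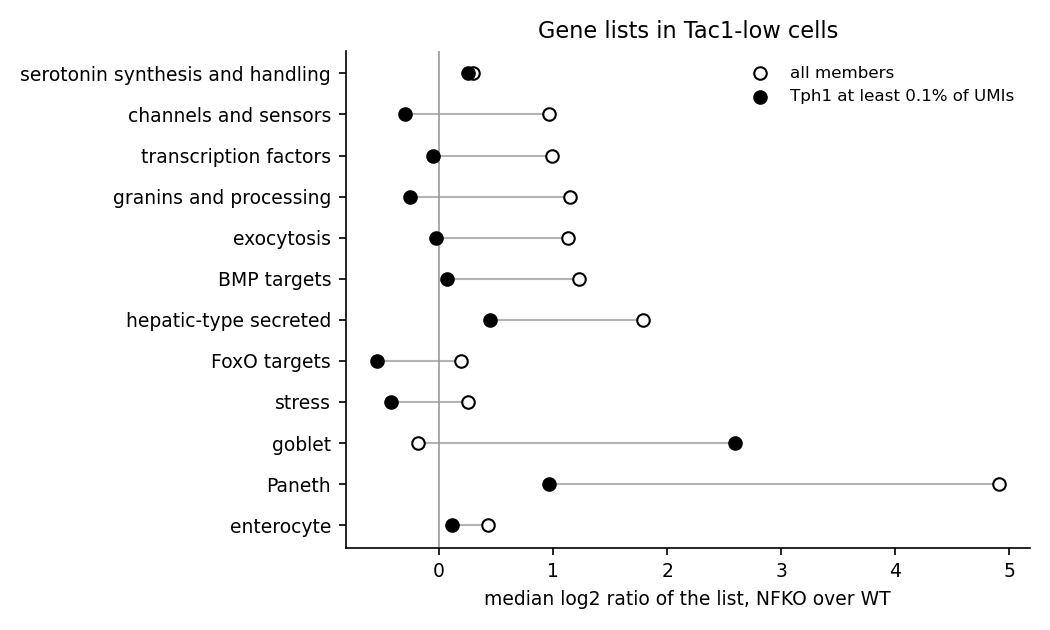
The median log2 ratio of NFKO over WT for each gene list (rows) in Tac1-low cells, with open circles for all members and filled circles for Tph1-rich cells. Granins, release genes, BMP targets and transcription factors lie near or above 1 in all members and between -0.25 and 0.07 in Tph1-rich cells.

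The targeted gene was at the limit of detection. Foxo1 had 8 UMIs in 5 of 21 WT members (15.0 CPM, 6.48 to 29.6) and 45 UMIs in 34 of 201 NFKO members (17.4 CPM, 12.7 to 23.2), intervals that overlap. The kit reads the 3′ end of transcripts, outside the floxed part, so this count does not check the deletion. Of 9 FoxO target genes measured in Tph1-rich cells, 4 were past 1.5-fold lower in NFKO and 0 higher, where 9.05% and 21.8% of all genes were, with a median log2 ratio of -0.55. Summed over the whole list, FoxO targets were 0.192% of UMIs in WT and 0.152% in NFKO in these cells. In Tph1-rich Tac1-high cells the list went the other way, at 0.135% and 0.147%. It was 0.166% and 0.170% in hormone-dominant cells. Over all members 0 of 6 were lower and 2 higher, beside 16.2% and 25% of all genes, with a median of 0.19. Irs2, an insulin receptor substrate, was 0.519 times, Trib1 0.529, Insr 0.569 and Cdkn1b 0.632 times, on 11 to 47 WT UMIs. Ins1 had 0 UMIs in members of both libraries, and Ins2 had 0 in WT and 2 UMIs in 2 NFKO cells, against 1 UMI in NFKO Tac1-high cells. No gene of the beta cell list passed the count minimum in this comparison.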

How the data were processed

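The authors sorted tdTomato-positive small intestinal cells and prepared 10x Genomics 3′ libraries, 1 per genotype. The deposited values are raw UMI counts for 32285 genes per barcode, written by Cell Ranger 5.0.1 on mm10 per the submitters' processing notes. Totals were 90002878 UMIs in 5051 WT barcodes and 124300388 in 7540 NFKO barcodes, and 6 barcodes occurred in both.

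Counts were summed per kind of cell and library and divided by the total to give CPM. Intervals are exact 95% intervals (Poisson for CPM, Clopper-Pearson for shares, conditional binomial for ratios) and cover counting error only. A level of 3 counts served as floor for a gene at 0. Genes were compared with at least 50 CPM and 100 UMIs, and called past 2-fold (panels 1.5-fold) with no test; list medians leave out genes at 0. Shares of cells with a UMI were compared after thinning to 2000 UMIs. Scrublet (scanpy 1.11.5) marked 3 and 0 barcodes, which shows that its automatic limit did not work here, so doublets were left in; an alternative removed the 126 and 340 highest scores. Goblet-type cells had the 5 genes Muc2, Clca1, Zg16, Tff3 and Fcgbp at 1% of UMIs or more.

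Named genes were the 5 markers, the 10 highest and 10 lowest ratios of each comparison (NFKO over WT left out genes with 50% or more of the UMIs in 3 cells; the others were ranked by the weaker of the 2 libraries, and for higher genes of Tph1-rich cells the same limit was added in each library), and panel members past 1.5-fold or of 500 CPM; sex-linked genes and genes of the rule were left out. The members and lists were chosen with earlier results of these data known. The Reg4 split, the Tph1-rich cells and the motifs were chosen after seeing the data. Poisson counts were also simulated with set changes and no variation between cells or libraries. There, 95.5% of the intervals for NFKO over WT held the true ratio over 3526 genes. In them 100 of 100 higher and 55 of 55 lower genes were recovered, and 5 unchanged genes passed 2-fold. Such counts meet the assumption of the intervals, so this checks the calculation and not the calls in these data. Promoters came from RefSeq on GRCm38.p6. Python 3.11.15, numpy 2.4.6, scipy 1.17.1 and matplotlib 3.10.9 were used.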

Additional observations from a re-analysis of the deposited data

Results flagged for a closer look

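In the Tph1-rich cells, 2 genes lay past 2-fold in opposite directions in the 2 libraries when Tac1-low cells were set against Tac1-high cells. Guca2a, the precursor of guanylin, was 0.279 times in WT (77.0 against 276 CPM, on 9 UMIs) and 2.24 times in NFKO (125 against 55.7 CPM, on 242 UMIs). Pglyrp1, a peptidoglycan recognition protein, was 0.282 times in WT (25.7 against 90.9 CPM, on 3 UMIs) and 2.63 times in NFKO (65.0 against 24.7 CPM, on 126 UMIs). The difference between the libraries was not tested, since each genotype has 1 library, and the 3 cells with most UMIs held 66.7% of the WT UMIs of Guca2a and 100% of those of Pglyrp1.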

How the results depend on the processing

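The share of Tac1-low cells among enterochromaffin cells stayed higher in NFKO under each setting run, at 5.49% against 36.5% with a Tac1 limit of 0.05% and 19.8% against 59.4% with 0.2%. Counts of genes moved more. For NFKO over WT, higher genes numbered 421 of 3693 compared over all members. They were 214 of 3693 with equal cell weight, 205 of 1146 in male-typed cells and 877 of 7210 with a minimum of 20 CPM and 30 UMIs. Tph1-rich cells with few goblet or Paneth UMIs gave 220 of 3024, and male-typed Tph1-rich cells 11 of only 412. Lower genes numbered 122 of 3355 with the Tac1 limit of 0.05%, 154 of 3693 with equal weight and 628 of 7210 with the lower minimum. In Tph1-rich cells they were 79 of 3615, and 95 of 3615, 52 of 3024 and 10 of 412 with equal weight, few goblet or Paneth UMIs and male-typed cells among these. The genes compared were chosen anew in each setting, so the counts that follow are not shares. Against hormone-dominant cells, 465 genes were higher in Tph1-rich cells, 449 with equal weight, 470 with few goblet or Paneth UMIs and 443 in male-typed cells among these, while all members gave 215 with equal weight and 235 with the lower minimum, which also gave 295 lower. Against Tac1-high cells the same Tph1-rich settings gave 171, 151, 194 and 129 higher and 143, 148, 154 and 188 lower, and the lower minimum 132 and 189. Panel genes higher in NFKO numbered 36, 37, 31 and 11 in these Tph1-rich settings and 50 with equal weight and 50 in male-typed cells, with 8 lower in male-typed Tph1-rich cells. Panel genes higher against Tac1-high cells numbered 32 in Tph1-rich cells, 31 with equal weight and 33 with few goblet or Paneth UMIs, and 35 were lower in male-typed cells. Of the 5 markers, 4, counting Tph1, which the rule set, rather than 2 were higher with a Tac1 limit of 0.05%, in Tph1-rich cells and in those with few goblet or Paneth UMIs.

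Directions turned for Afp in WT against Tac1-high cells, at 1.84 times with a Tac1 limit of 0.2% and 3.97 times in Tph1-rich cells with few goblet or Paneth UMIs. Reg1 in WT was 0 times in the 4 Tph1-rich settings. In male-typed Tph1-rich cells C230038L03Rik was 0.963 and Gdpd5 0.688 times in NFKO over WT and Fabp1 was 0.322 times in NFKO, and Zfp704 was 1.08 times in male-typed cells. The causes were not tested. Ratios with no UMI in the denominator have no value here. The Tph1-rich settings were chosen after seeing the data. No paired analysis was possible because each genotype is 1 library. Depth limits WT most: a gene at 0 over all WT members could lie at up to 5.63 CPM.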
